A study of Mus musculus with 6 samples.

Results

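Many mouse transcripts known only as complementary DNA (cDNA) clones still carry the provisional names of the RIKEN cloning project. The members described here are all array names of 5 such clone series, those with the same first 4 digits as 4921510H08Rik, 4922502D21Rik, 4931407G18Rik, 4932412H11Rik or 4933409G03Rik, which were given to clones of testis libraries. Names placed inside the span of chromosome 1 that stands for the segment differing between the strains were left out, which removed 2 names. This gave 287 members of 34797 names on the array, represented by 341 probes. The choice used names and positions only, no measured value. Of the 287 members, 154 could be tested and 133 were too dim.

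The samples are whole testes of mice 3 months old, taken at day 10 after the scrotum had been held once at 43 °C for 20 min. The first group is B6, 3 samples of wild-type mice on the C57BL/6 background. The second is B6.MRLc1, 3 samples of the congenic strain B6.MRLc1-(D1Mit202–D1Mit403), which carries MRL-type chromosome 1 from 67.97 to 81.63 cM on the same background, so any gene of that segment may differ between the groups. All 6 samples were heated, and unheated testes were not analysed here. RNA of each sample, 0.1 ug, was labelled with 1 dye and hybridised to 1 array, and each array was taken as 1 mouse, as the design text counts 3 animals per strain. A level is log2 of the background-subtracted signal divided by the 75th percentile of its array, and a difference is B6.MRLc1 minus B6. Levels of different probes were not set against each other as amounts of RNA.

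Spermatogenesis leads from spermatogonia through meiotic spermatocytes to round and then elongating spermatids. Spermatocytes and round spermatids transcribe large numbers of genes and long noncoding RNAs that other tissues use little, and cDNA libraries of adult testis therefore gave many clones that were rare elsewhere. Germ cells in meiosis and early spermatids are the testis cells most easily lost after heat, whereas Sertoli and Leydig cells, which nurse germ cells and make testosterone, mostly survive it.

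All 6 arrays lay on 1 slide and were read in 1 scan, with the B6 arrays in slide row 1 and the B6.MRLc1 arrays in slide row 2, so strain and slide row cannot be told apart. The 75th percentile of the signal lay between 558.0 and 666.4 intensity units, with 0 saturated spots. A larger share of spots was well above background on the B6 arrays (68.6% to 69.0%) than on the B6.MRLc1 arrays (58.0% to 64.7%), and the scanner's additive error estimate was 2.66 to 3.14 units against 3.38 to 5.68 units. The germ cell markers measured were present: the 10 round spermatid markers had a summed scaled signal of 4.97 to 7.25 in B6 and 2.53 to 2.78 in B6.MRLc1, with 4 of 10 called lower and a median difference of -1.45. For the 10 elongating spermatid markers the sums were 19.2 to 51.2 and 4.73 to 9.83, with 1 called lower and a median of -2.10. The 10 spermatocyte markers summed to 7.70 to 11.4 and 4.42 to 5.81, but their median was -0.02. The 1 called lower among them was Ldhc, the lactate dehydrogenase of germ cells, which fell by 3.18 (limma adjusted p = 0.0417). Sycp1, Sycp3, Hormad1, Hormad2 and Dmc1 differed by -0.04 to 0.06. The rest of the list, all uncalled, spread more widely: Piwil1 by -2.27, Spo11 by -0.74, Sycp2 by 0.19 and Mybl1 by 0.34. Of the 10 spermatogonium, 10 Sertoli and 6 Leydig cell markers none was called, with medians of 0.03, 0.10 and 0.15 on the log2 scale. Adipocyte markers, of which 5 of 6 were tested and none called (Lep not above background), summed to 3.72 to 6.15 in B6 and 6.76 to 13.7 in B6.MRLc1. The 5 epididymis markers were not above background. None of the 6 myoid, 6 macrophage and 5 endothelial markers was called, and 1 of 4 red cell markers was called lower. The part of cell makeup, background error and adipocyte signal in the differences below was not tested.

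The label of uncharacterised clones held for part of the names. A RefSeq gene table (GRCm38.p6, used for names) held 224 of the 287 members, and for 76 of these it gave a newer symbol. It listed 109 members as protein coding and 107 as long noncoding RNA (lncRNA). In the array's descriptions 88 members were called an unclassifiable product and 68 a noncoding RNA, while 104 were an mRNA with no stated product. A source of adult male testis was written for 94 members. Another tissue was named for 14, among them ovary, thymus, retina and embryo, and the remaining 179 descriptions gave no tissue.

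The array reads each name through probes of 60 bases. Those shown next are first the probes of the 4 called members that B6.MRLc1 arrays measured above background. They are followed by that of the called member with the smallest adjusted p and that of 4933413J09Rik, which 5 alternative settings called higher. Last are both probes of 4933425O20Rik, which disagreed. The 1 other member that a setting called higher, 4933439C10Rik, is not shown. Letters are the probe's own strand from the scanner tables, 5′ to 3′, with positions of the array annotation (mm9) and the listed strand, and capitals mark a stretch of at least 20 bases in which a unit of 1 to 3 bases repeats.
4933421I07Rik (chr7:49700936-49700995, minus): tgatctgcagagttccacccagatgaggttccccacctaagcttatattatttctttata
4933406F09Rik (chr14:8254185-8254244, plus): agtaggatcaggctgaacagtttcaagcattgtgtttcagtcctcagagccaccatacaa
4933412L11Rik (chr6:87943130-87943189, minus): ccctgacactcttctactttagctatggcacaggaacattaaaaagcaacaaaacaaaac
4933433G15Rik (chr9:75265457-75265516, plus): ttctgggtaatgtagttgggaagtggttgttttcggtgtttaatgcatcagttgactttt
4933409G03Rik (chr2:68454383-68454442, plus): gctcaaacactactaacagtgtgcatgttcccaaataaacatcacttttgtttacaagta
4933413J09Rik (chr14:27219857-27219916, plus): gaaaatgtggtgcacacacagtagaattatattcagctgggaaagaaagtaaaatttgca
4933425O20Rik, tested probe (chr2:130233368-130233427, plus): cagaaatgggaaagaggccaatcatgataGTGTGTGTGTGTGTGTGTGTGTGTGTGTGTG
4933425O20Rik, second probe (chr2:130232875-130232934, plus): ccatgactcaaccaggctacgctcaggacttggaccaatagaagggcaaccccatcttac

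Between the strains, 14 of the 154 tested members were called lower in B6.MRLc1 and 0 higher (limma, Benjamini-Hochberg adjusted p under 0.05 over all 25122 names tested). That is 9.09% of members, beside 2.21% of all names called lower and 0.386% called higher. At an unadjusted p under 0.05 the same limma fit had 49 of 154 members lower and 6 higher. Beside these stood 2831 (11.3%) and 2208 (8.79%) of the 25122 names. Of these 55 members, 42 were above background on 3 to 5 arrays, 24 of them on 0 B6.MRLc1 arrays. Those 24 could be tested through B6 alone, so the counts are a description only. The median difference was -0.08 for the members and 0.01 for all names, and 61.7% of members (95 of 154) lay below zero beside 46.9% of all names. The count changed with single arrays: leaving out B6 array 1, 2 or 3 left 0, 7 or 5 members called lower, and leaving out B6.MRLc1 array 1, 2 or 3 left 1, 0 or 7. In whole tissue, fewer cells of a type and less RNA per cell cannot be told apart.

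The calls lay among dim members. None of the 92 members well above background on all 6 arrays was called, beside 1.47% of all such names called lower and 0.410% called higher. Their median difference was 0.01, with 42 (45.7%) below zero, beside 43.8% of all such names. All 14 calls fell among the 62 members above background on 3 to 5 arrays (22.6%, beside 7.30% of all such names called lower). The median of these 62 members was -1.16, beside -0.21 for all such names. Of those, 26 were above background on all 3 B6 arrays and on 0 B6.MRLc1 arrays. They passed the filter on dim probes through B6 alone, which favours values lower in B6.MRLc1. All 26 lay below zero, as did 97.2% of all such names. The 10 calls among them (38.5%, beside 21.0% of all such names called lower) therefore support nothing by their number. The other 4 calls were of 4933421I07Rik, 4933406F09Rik, 4933412L11Rik and 4933433G15Rik, which 1 or 2 B6.MRLc1 arrays measured. The filter asked for at least 3 arrays, so these members too needed B6 arrays to pass it. Their number is likewise a description only.

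**Figure D1:**
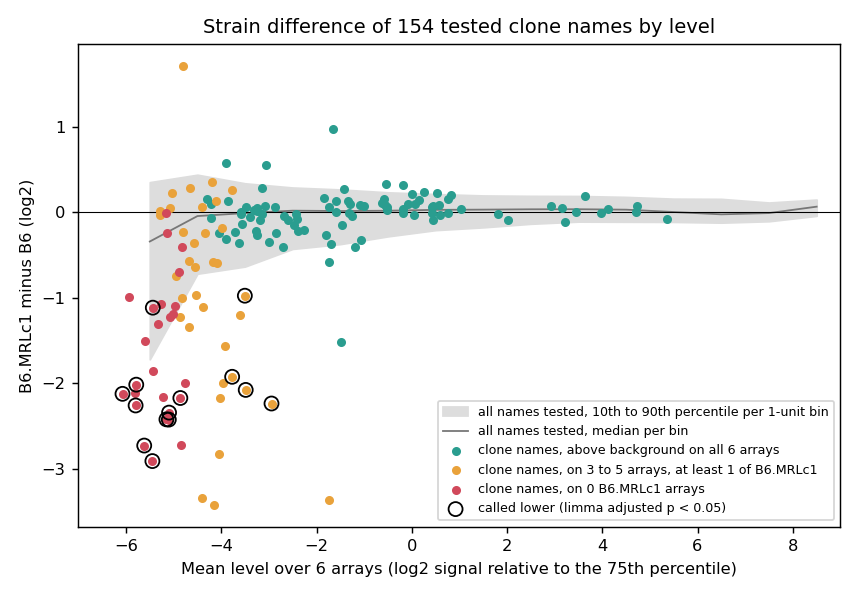
Strain difference (B6.MRLc1 minus B6, log2) of the 154 tested members against mean level over the 6 arrays, coloured by how many arrays measured the probe above background; rings mark the 14 called lower, the grey band spans the 10th to 90th percentile of all names in bins of 1 log2 unit and the grey line their median. The ringed points all lie at the dim end, and among members above background on all 6 arrays 74 of 92 lie within 0.25 of zero.

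4933421I07Rik, listed as protein coding, was 1 of the 4 called members that B6.MRLc1 arrays measured. Its levels were -1.52, -2.35 and -1.61 in B6 and -4.40, -4.00 and -3.79 in B6.MRLc1. The groups did not overlap, and 2 of 3 B6.MRLc1 arrays were above background. The gene fell by 2.24 on the log2 scale (SE 0.27, limma adjusted p = 0.0267, n = 3 per strain), and under normexp, a background correction whose offset of 50 draws dim values together, by 1.20 (limma adjusted p = 0.0157). It was the 1 member among the 14 that fell by more than 1 under both corrections.

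4933406F09Rik is an lncRNA. Its levels were -2.28, -2.91 and -2.15 in B6 and -4.55, -4.92 and -4.10 in B6.MRLc1, where 1 array was above background. The strains were separated on every array, and the transcript fell by 2.08 (SE 0.28, limma adjusted p = 0.0313, n = 3 per strain), or by 0.90 under normexp (limma adjusted p = 0.0222). The gene table places it over a pseudogene, Gm8379, so whether the probe reads this transcript alone is uncertain.

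4933412L11Rik is a cDNA of adult male testis, which the gene table used here did not match. In B6 it stood at -2.37, -3.46 and -2.59 and in B6.MRLc1 at -4.71, -4.72 and -4.77, the last 3 values nearly equal and close to the lowest signals called above background on those arrays (-4.49, -5.01 and -5.31). It fell by 1.92 (SE 0.28, limma adjusted p = 0.0370), or by 0.79 under normexp (limma adjusted p = 0.0453). 4933433G15Rik, an lncRNA beside Mapk6, stood at -2.95, -3.28 and -2.82 in B6 and at -4.20, -3.94 and -3.84 in B6.MRLc1. This was the smallest of the 14 differences: it fell by 0.98 (SE 0.15, limma adjusted p = 0.0405), and under normexp the difference of -0.36 was not called (limma adjusted p = 0.0611). Both transcripts were above background on 2 of 3 B6.MRLc1 arrays.

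For the other 10 called members no B6.MRLc1 array gave a signal well above background. For these only a bound can be given, the B6 mean over the mean of, per B6.MRLc1 array, whichever is higher, the value of the probe or the weakest signal called above background there. It holds for this signal scale only and is given without an error. The weakest signal was taken over all spots of an array and is not the detection limit of a given probe, so each bound is approximate. 4933409G03Rik, listed as protein coding, had the smallest adjusted p of all members. Its B6 levels were -3.55, -4.29 and -4.14, its B6.MRLc1 levels -6.49, -6.95 and -7.25, which puts B6 at least 1.93-fold higher (fitted difference -2.91, SE 0.27, limma adjusted p = 0.0193; normexp -0.45, limma adjusted p = 0.0450). Under the 6 leave-one-out fits it was called in 4, more often than any other called member.

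Among these 10, 5 carry newer symbols. 4922505G16Rik (Mroh8, of the maestro heat-like repeat family) stood at -3.35, -4.41 and -3.57 in B6 and at -6.03, -5.53 and -6.27 in B6.MRLc1, at least 2.24-fold higher in B6 (limma adjusted p = 0.0387). 4933411G11Rik (Spdye4b, of the Speedy family of cyclin-dependent kinase activators) was at least 2.07-fold higher in B6, with B6 levels of -3.53, -4.57 and -3.57 and B6.MRLc1 levels of -6.61, -6.24 and -6.09 (limma adjusted p = 0.0297). Its neighbour in the gene table is Spdye4a, a related gene, so the probe may read both. 4931429I11Rik (Jhy, the junctional cadherin complex regulator needed for motile cilia) was at least 2.02-fold higher in B6 (levels of -3.39, -4.55 and -3.84 against -6.51, -6.60 and -5.68; limma adjusted p = 0.0429).

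4933404M02Rik (Erich2, a glutamate-rich protein) was at least 1.99-fold higher in B6, with levels of -3.58, -4.03 and -4.21 against -6.53, -6.89 and -5.66 (limma adjusted p = 0.0346). It was also called under normexp, where it fell by 0.52 (limma adjusted p = 0.0217). 4932412H11Rik (Lrrd1, named for leucine-rich repeats and a death domain) was the dimmest call. Its B6 levels of -4.37, -5.47 and -5.19 were no higher on average than the lowest signals above background on the B6.MRLc1 arrays, so no fold is given for its fitted difference of -2.12 (limma adjusted p = 0.0407), and with dim values raised to that floor the difference turned to 0.08.

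The remaining 4 gave bounds of 1.04-fold to 1.61-fold. The highest of these was for 4933435G04Rik, a clone described as a hypothetical protein, with B6 levels of -3.66, -5.07 and -4.04 against -6.56, -7.05 and -7.34 (at least 1.61-fold higher in B6, limma adjusted p = 0.0370). 4933401H06Rik, an lncRNA inside the zinc transporter gene Slc39a8, was at least 1.20-fold higher in B6 (limma adjusted p = 0.0303), and the lncRNA 4933407I05Rik at least 1.12-fold higher (limma adjusted p = 0.0362). The lncRNA 4931415C17Rik was at least 1.04-fold higher (limma adjusted p = 0.0407), and its description names neonatal thymus as the source of the clone. In all, 9 of the 10 members gave a bound.

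**Figure D2:**
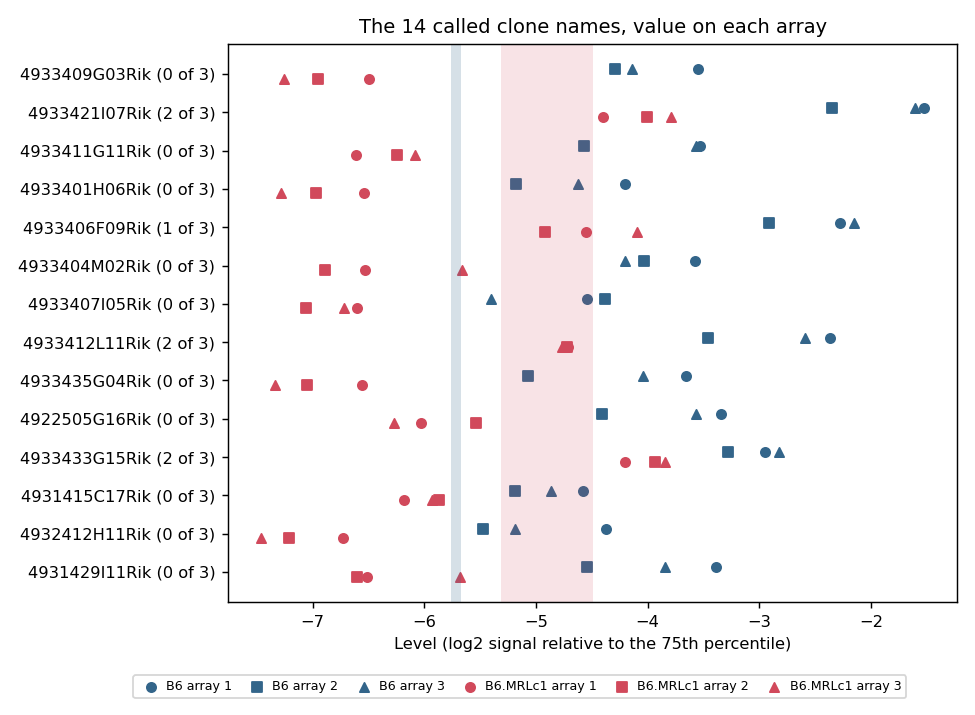
Level (log2 signal over the 75th percentile of the array) of each of the 14 called members on the 3 B6 arrays (blue) and the 3 B6.MRLc1 arrays (red), ordered by adjusted p, with the number of B6.MRLc1 arrays above background in brackets; the blue and red bands span the lowest signals called above background on the arrays of each strain. Every red point lies left of every blue point of its row, and for 10 rows the red points lie left of the red band.

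Across the 14, B6 array 1 held the highest B6 value for 11 members and B6 array 2 the lowest for 12. The median deviation of the 14 from their own means was 1.54, 0.56 and 1.22 on B6 arrays 1 to 3 and -0.99, -1.15 and -0.96 on B6.MRLc1 arrays 1 to 3. The 14 were chosen by their difference on these same values, so the opposite signs of the strains follow from that choice. Over members above background on all 6 arrays, none of them called, the same medians lay between -0.03 and 0.06. Values without overlap were found below for 53 of 154 members (34.4%) and above for 10 (6.49%), beside 14.1% and 14.3% of all names. Of the 53, 43 were among the 62 members on 3 to 5 arrays (69.4%, beside 27.2% of all such names). The 26 members on 0 B6.MRLc1 arrays, which passed the filter through B6 alone, gave 24 of them. The share of 34.4% is therefore a description only. Among the 92 members above background throughout, 10 lay wholly below and 10 wholly above, beside 12.2% and 15.9% of such names.

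Detection was counted over all 287 members. Of these, 176, 158 and 171 were well above background on B6 arrays 1 to 3, and 95, 114 and 133 on B6.MRLc1 arrays 1 to 3. Above background on B6 arrays alone were 59 members (20.6%), and on B6.MRLc1 arrays alone 8 (2.79%), beside 6.50% and 1.76% of all names. On none of the arrays were 90 members (31.4%, beside 21.0% of all names), and on all 6 were 92 (32.1%, beside 63.0%). Because B6.MRLc1 arrays also had fewer spots above background in general, this split is a description of members on these arrays, and its source was not tested.

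**Figure D3:**
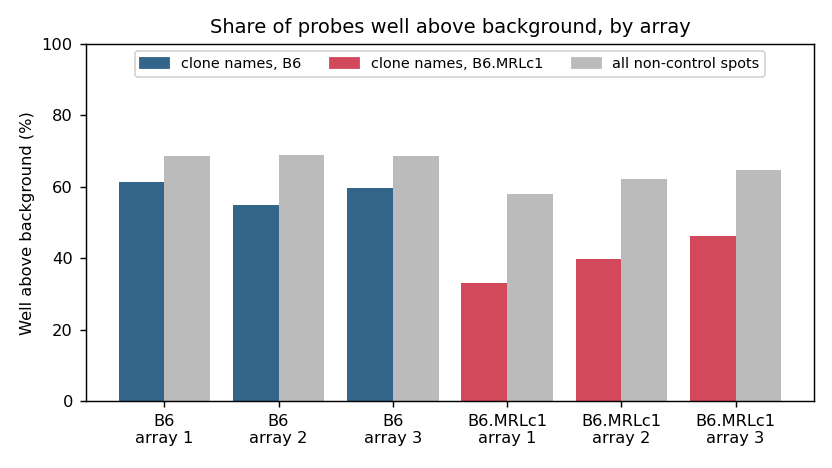
Percent of the 287 members (blue for B6, red for B6.MRLc1) and of all non-control spots (grey) that were well above background on each array. Members run from 55.1% to 61.3% on the B6 arrays and from 33.1% to 46.3% on the B6.MRLc1 arrays, and all spots from 68.6% to 69.0% and from 58.0% to 64.7%.

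Fitted differences as large as those of the 14 were found in members that missed the threshold, and they are named here after their values were seen. 4922502D21Rik (Clec2m, a C-type lectin) stood at 0.39, -0.67 and 0.09 in B6 and at -4.59, -3.25 and -2.44 in B6.MRLc1, a difference of -3.36 (SE 0.59, limma adjusted p = 0.0515). Its B6.MRLc1 values spread over more than 2 log2 units without reaching the B6 values. Under normexp the difference was -2.43 and was called (limma adjusted p = 0.0128), the largest normexp fall among members. 4921510H08Rik (Ccer1, a glutamate-rich nuclear protein of spermatids) stood at -1.72, -2.55 and -3.04 against -6.62, -6.74 and -4.21, a difference of -3.42 (limma adjusted p = 0.0845), with 1 B6.MRLc1 array above background and a normexp fall of 1.18 (limma adjusted p = 0.0375).

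4922501L14Rik (Erich3, a glutamate-rich protein linked to cilia) stood at -2.05, -3.02 and -3.17 against -6.65, -7.10 and -4.49, a difference of -3.33 (limma adjusted p = 0.0830). 4931407G18Rik (Cabs1, a calcium-binding protein of spermatids) stood at -1.76, -2.81 and -3.36 against -6.38, -6.57 and -3.44, a difference of -2.82 (SE 0.93, limma adjusted p = 0.178). B6.MRLc1 array 3 gave the highest B6.MRLc1 value for both, as it did for Ccer1, and for Cabs1 that value lay just below the lowest of B6. In all, 9 uncalled members had a fitted difference below -2.

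Among members above background on all 6 arrays, 2 were called lower under normexp and not in the reported fit, and they too are named after their values were seen. 4933411K16Rik, listed as protein coding, stood at -0.15, -0.85 and -1.18 in B6 and at -2.33, -2.51 and -1.88 in B6.MRLc1, a difference of -1.51 (SE 0.30, limma adjusted p = 0.0655), the only one of the 92 below -1. Under normexp it fell by 1.12 (limma adjusted p = 0.0445). 4933437F05Rik (Noxred1, named as an oxidoreductase domain protein) stood at -1.25, -1.40 and -1.71 against -2.08, -1.99 and -2.02, a difference of -0.58 (SE 0.12, limma adjusted p = 0.0786; normexp fall of 0.45, limma adjusted p = 0.0467). In both the groups did not overlap, and both probes lay clear of background.

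On the other side, the 4 largest fitted rises were uncalled. 4933413J09Rik, an lncRNA, stood at -2.27, -2.18 and -1.99 in B6 and at -1.55, -0.94 and -1.03 in B6.MRLc1, a difference of 0.97 (SE 0.18, limma adjusted p = 0.0572). Both of its probes were higher in B6.MRLc1, by 0.97 and 0.48. Where the fit was restricted to probes above background on all 6 arrays it was the 1 member called higher and none was called lower, beside 0.588% and 1.82% of all names in that fit, and under normexp it rose by 0.77 (limma adjusted p = 0.0356). 4921515L22Rik, a testis cDNA, had a larger difference of 1.71 but overlapping groups (-6.60, -5.27 and -5.12 against -4.25, -2.41 and -5.20; limma adjusted p = 0.297).

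4921523A10Rik (Pp2d1, with a protein phosphatase domain) had a difference of 0.58 that rested on B6.MRLc1 array 2, at -2.40 against -4.14 and -4.28 on the others. Without that array it turned to -0.02. 4931407E12Rik, a testis cDNA, differed by 0.56 (limma adjusted p = 0.287), with B6 levels of -3.84, -3.18 and -3.01 and B6.MRLc1 levels of -2.50, -3.00 and -2.87.

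**Figure D4:**
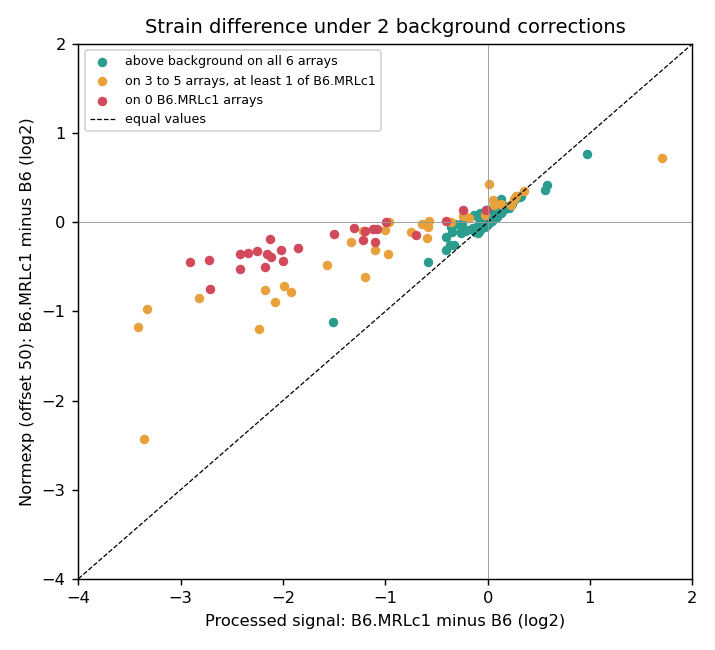
Strain difference (B6.MRLc1 minus B6, log2) of the 154 tested members from the processed signal (horizontal) and under normexp with an offset of 50 (vertical), coloured by detection; the dashed line marks equal values. Members above background on all 6 arrays follow the line more closely, while those on 0 B6.MRLc1 arrays lie near zero on the vertical axis; 4 members fall by more than 1 under normexp.

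The counts changed with the background correction. Under normexp 10 of 154 members were called lower and 1 higher, beside 2.41% and 1.06% of all names, and 5 of the 10 were among the 14. The median over the 154 became 0.01 and the share below zero 47.4%, beside 0.04 and 39.1% over all names. Of the 14, only 4933421I07Rik kept a fall beyond 1, and 4931415C17Rik came to -0.08. The deposited value table of the series, which leaves dim spots empty, gave 2 members called lower of 128 tested, 4933421I07Rik and Clec2m, beside 1.38% of all names.

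The 6 members whose probes gave the highest signal were all uncalled. 4931402H11Rik, a testis cDNA of unclassifiable product, stood at 5.26, 5.38 and 5.58 in B6 and at 5.39, 5.20 and 5.40 in B6.MRLc1 (difference -0.07, SE 0.10). 4933434E20Rik, listed as protein coding, differed by 0.01 (SE 0.05), 4933407C03Rik (Cmip, an adaptor protein of signalling in lymphocytes) by 0.04 (SE 0.05) and 4933427D06Rik by -0.01 (SE 0.07). The direction of 4933434E20Rik and 4933427D06Rik turned with the scaling or weighting. 4933402E13Rik, on chromosome X, differed by 0.19 (SE 0.07, limma adjusted p = 0.232), and its B6.MRLc1 values of 3.72, 3.76 and 3.75 lay above B6 values of 3.44, 3.53 and 3.68.

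4933425O20Rik (Tmem239, a transmembrane protein) shows how the probe can set the value. Its tested probe read 4.69 ± 0.09 in B6 and 4.76 ± 0.07 in B6.MRLc1 (SD, n = 3), a difference of 0.07. Its second probe, on the same accession, had a mean level of -4.31, was above background on 3 B6 arrays and 0 B6.MRLc1 arrays, and differed by -2.43. The tested probe ends in a repeat of 31 bases (capitals above) and the second holds none of 20 bases or more. Over all names, 152 of 25122 tested probes (0.605%) held such a repeat, and 149 of them lay above the median level, with a median of 5.35 beside -0.63. It was the 1 tested member with a repeat of that length, and 4933427D06Rik, 4921513D23Rik (Marf1) and 4933421H12Rik followed with 17 bases. Whether the bright probe reads Tmem239 was not tested.

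Of 18 members with more than 1 kept probe, the probes had the same sign in 9 and opposite signs in 9, with a median gap of 0.24 on the log2 scale. Gaps above 0.5 were found for 3, namely 4933425O20Rik (2.50), 4933402N22Rik and 4933432B09Rik (Fam227a). None of the 14 called members had a second kept probe.

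Of the 58 tested members with newer symbols, 30 were above background on all 6 arrays, and 23 of these lay within 0.25 of zero. The other 28 were above background on all 3 B6 arrays and on 0 to 2 of B6.MRLc1, and passed the filter through B6, so their fitted differences, of which 19 lay below -1, are a description only. Named after their values were seen, Henmt1 (4921515J06Rik), the methyltransferase that protects piRNAs, differed by -0.20. Cep162 (4922501C03Rik), a protein of the ciliary transition zone, differed by -0.03, Ints13 (4933424B01Rik), an Integrator subunit, by 0.04, and Marf1, a regulator of oocyte meiosis, by 0.03. None of these 4 was called. Ubqln5 (4931431F19Rik), of the ubiquilin family, differed by -1.10 and Stpg3 (4933433C11Rik), with sperm-tail repeats, by -2.16, both on 0 B6.MRLc1 arrays and uncalled.

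By kind of transcript the calls were spread. Protein-coding members gave 7 calls of 74 tested and lncRNAs 5 of 48, with medians of -0.25 and -0.03. On members above background on all 6 arrays these medians were 0.00 and 0.06. Of 102 members with a protein-coding accession 70 (68.6%) could be tested, and of 110 with a cDNA or EST accession 46 (41.8%). By clone series the calls were 10 of 86 tested in that of 4933409G03Rik, 2 of 22 in that of 4931407G18Rik, 1 of 15 in that of 4932412H11Rik, 1 of 4 in that of 4922502D21Rik and 0 of 27 in that of 4921510H08Rik. The calls fell on 8 chromosomes, with 3 each on chromosomes 2 and 9 and none on chromosome 1, where 4 of 15 members were tested. For comparison, 2.21% of all names tested were called lower. Each of the 14 calls came from the members above background on 3 to 5 arrays, which passed the filter with the help of B6. The counts of calls, and the medians over all tested members, are therefore a description only. Differences among these groups were not tested.

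The calls were also set beside the level of the probe. When all names were split by level into 4 bins of equal size, the dimmest bin held 84 of the 154 members, with 13 calls (15.5%, beside 4.23% of all names there) and a median of -0.58. The next bin held 32 members and 1 call (3.12%, beside 2.98%), and the 2 brightest held 27 and 11 members and none, beside 1.11% and 0.525%. All 14 calls were of members above background on 3 to 5 arrays, which needed B6 arrays to pass the filter. Splitting by level does not remove this, so the shares called by level are a description only. The 27 members of the bin next to the brightest had a median of 0.09, beside 0.03 for all names there. Below zero lay 7 of the 27 (25.9%), beside 42.5% of all names there.

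Other RIKEN testis series serve as the nearest comparison. Of the 1700 series 58 of 262 tested names were called lower (22.1%, median -0.46) and of the series of 4930401B11Rik 22 of 198 (11.1%, median -0.12), while clone names of all other series gave 13 of 1367 (0.951%, median 0.04). Among names above background on all 6 arrays the counts were 27 of 162 for 1700, 8 of 130 for the series of 4930401B11Rik, 10 of 1194 for other series and 0 of 92 for the members. Of all such names 1.47% were called lower. Among names on 3 to 5 arrays the shares were 31.0%, 20.6%, 1.73% and 22.6% in the same order, beside 7.30% of all such names. These include names on 0 B6.MRLc1 arrays, which passed the filter through B6 alone, so the shares are a description only. Whether the series differ was not tested.

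**Figure D5:**
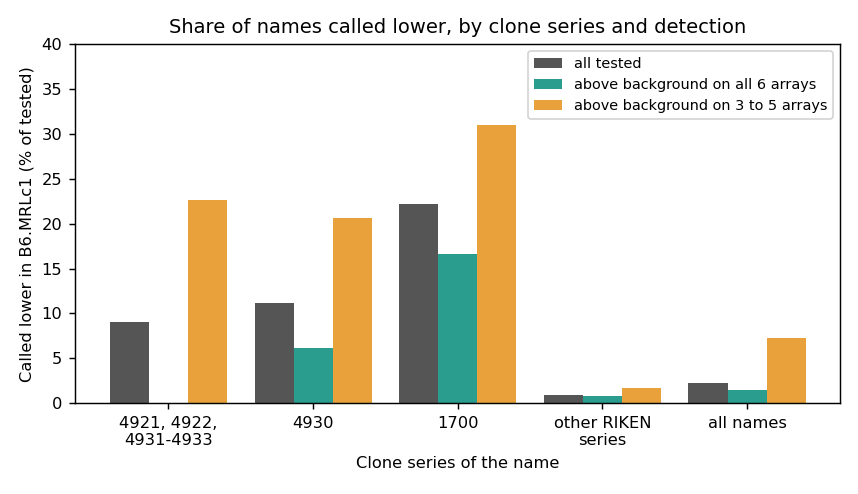
Percent of tested names called lower in B6.MRLc1 for the members (first bars), the series of 4930401B11Rik, the 1700 series, other RIKEN series and all names, for all tested names (grey) and by detection (green on all 6 arrays, orange on 3 to 5). The members' green bar is at 0, beside 1.47% for all names. Their orange bar of 22.6% stands beside 20.6% for the series of 4930401B11Rik and 7.30% for all names.

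Of the host and neighbouring genes of the called members, 1 was called. By the gene table's order, 16 genes that overlap or come next to the 12 called members it holds, at any distance, were tested. Of these, 13 lay within 0.25 of zero. Rpn2, which overlaps Mroh8, differed by 0.10, Slc39a8 around 4933401H06Rik by -0.15, Tubgcp3 over 4931415C17Rik by 0.03, Mterf1a over Lrrd1 by -0.01 and Mapk6 beside 4933433G15Rik by 0.13. Crtam, next after Jhy, differed by -1.14 (limma adjusted p = 0.0573) and Gad1, next after Erich2, by -0.60 (limma adjusted p = 0.216), both uncalled. The called neighbour was Spaca7, a gene of the sperm acrosome 71688 bases before 4931415C17Rik, which fell by 2.35 (limma adjusted p = 0.0230). Over all tested members, 4 of 166 neighbours were called lower and 1 higher.

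Promoters were searched for the cyclic AMP response element (CRE), the site of CREM in spermatids, where RefSeq gives 300-base promoters for 174 members (188 promoters, 250 bases before to 50 after the start, GRCm38.p6). Both strands were searched. The full site TGACGTCA stood in 3 members' promoters (1.60%, beside 1.79% of 32851 promoters of all genes). Its core TGACG, which the full site contains, stood in 17.0% beside 20.8%. The MYB site AACNGTT, bound by A-MYB in spermatocytes, stood in 5.32% beside 4.45%, and TATAAA in 10.1% beside 13.6%. Of the 14 promoters of called members 1, 2, 2 and 4 held these motifs in that order. A match describes letters, not binding.

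The 3 promoters with the full site are shown from 80 bases before to 20 after the start (RefSeq, GRCm38.p6, plus strand), with the CRE in capitals, to set beside the values of their transcripts.
4931415C17Rik (chr8:12672347-12672446): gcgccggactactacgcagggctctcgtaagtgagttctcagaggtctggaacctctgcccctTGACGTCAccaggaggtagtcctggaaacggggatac
4933417D19Rik (chr8:123235011-123235110): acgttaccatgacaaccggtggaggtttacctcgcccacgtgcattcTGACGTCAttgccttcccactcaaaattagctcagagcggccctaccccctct
4933425H06Rik (Sox5os3, chr6:144672788-144672887): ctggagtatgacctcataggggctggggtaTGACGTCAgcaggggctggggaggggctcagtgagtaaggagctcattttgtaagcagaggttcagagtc
Of these lncRNAs 4931415C17Rik was called lower, as given above. 4933417D19Rik stood at -4.34, -4.33 and -4.61 in B6 and at -4.26, -4.32 and -4.51 in B6.MRLc1, a difference of 0.07 (SE 0.11, limma adjusted p = 0.767). Sox5os3, named for lying antisense to Sox5, stood at -3.60, -5.18 and -5.48 against -6.69, -7.20 and -6.72, a fitted difference of -2.12 (limma adjusted p = 0.0985) on 0 B6.MRLc1 arrays above background, at least 1.14-fold higher in B6.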

How the data were processed

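The deposited scanner tables are one-colour Agilent output with 1 linear intensity a spot, background-subtracted, per the file headers, by Feature Extraction 10.7.3.1, with flags of 0 or 1 for spots well above background and outliers; the submitters' processing notes name version 9.5.3. Per the labels' protocols, 0.1 ug of RNA was labelled with Cy3. The authors' deposited series table holds log2 values; at least 99.9% of them, over filled probes, agreed to within 0.05 with the scaled log2 signal used here once each probe was centred on its median over arrays. How the table was made is otherwise not stated in the sources used. Its column medians were -0.00297, -0.00405 and 0.0144 for B6 and 0.00474, 0.00986 and 0.0161 for B6.MRLc1.

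Control and outlier spots were left out, signals divided by the array's 75th percentile, log2 taken and spots of a probe averaged. Probes with values on at least 4 arrays and over 0.5 of spots above background on at least 3 arrays were kept (36626 of 55681), and the brightest per name was tested in R 4.3.3 with limma 3.58.1 (lmFit, eBayes), p-values adjusted by Benjamini-Hochberg. P-values set the strain difference against the spread among samples of the same strain, part of which may be technical. They cannot separate strain from slide row. The fit was tested on simulated data.

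Members, lists and the rule for named members were chosen with earlier results of these data known. The rule takes the 10 calls with the smallest adjusted p, up to 6 with newer symbols, up to 4 by bound, bright calls, calls higher, disagreeing probes, the 6 brightest and the 4 largest rises. Others are marked as named after their values were seen.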

Additional observations from a re-analysis of the deposited data

How the results depend on the processing

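The strain difference of members depends on how dim probes are treated. Beside 14 members called lower and 0 higher, no filter on dim probes gave 0 lower (median -0.00963, 51.6% below zero; all names 38 lower and 12 higher), probes above background on all 6 arrays 0 lower and 1 higher (0.00965, 45.7%), dim values raised to a floor 4 lower, and the deposited values 2 lower (-0.00881, 50.8%; all names 337 lower). Normexp gave 10 lower and 1 higher (0.0069, 47.4%; all names 606 lower and 266 higher). The variance trend gave 24 lower and 1 higher (all names 875 and 311), and array weights 24 and 2 (all names 1048 and 422). Median scaling, quantile normalization, the mean over probes and updated names kept 12 to 15 calls lower, within 1.5 times of the reported count. The cause of each shift was not tested.

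The replicate numbers, which are also the slide columns, did not pair the samples (correlations of deviations -0.04, 0.17 and 0.09 for numbers 1 to 3), and a fit with the replicate block called 2 members lower (all names 21 lower and 3 higher).

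Leaving out 1 array gave 0 to 7 members called lower, 0 to 1 higher, medians of -0.12 to -0.06, shares below zero of 57.8% to 64.9%, and 39 to 392 names lower and 7 to 79 higher overall. Differences of single members turned sign for 4932412H11Rik with the floor (0.0754), 4933425O20Rik with the mean of its probes (-1.18), 4933434E20Rik under normexp (-0.0218), quantile normalization (-0.0122), the mean of probes (-0.0299) and array weights (-0.0144), 4933427D06Rik with median scaling (0.00718) and weights (0.0419), 4921513D23Rik with the mean of probes (-0.0893) and 4933417D19Rik with weights (-0.0153). With 1 array left out, the values ran from -0.145 to 0.0120 for 4931402H11Rik, from -0.0145 to 0.0298 for 4933434E20Rik, from -0.0586 to 0.0224 for 4933427D06Rik, from -0.0246 to 0.917 for 4921523A10Rik, from -0.0969 to 0.126 for 4921513D23Rik and from -0.0244 to 0.140 for 4933417D19Rik. Over the members listed with their alternatives, 483 of the alternative values kept direction and call, 120 lost the call, 24 gained one and 21 turned sign. Probes near background, fewer of them measured on the B6.MRLc1 arrays, limit the size of most called differences to an approximate bound.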
